A study of Danio rerio with 23 samples.

Results

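The intestines examined here came from 4 zebrafish starved for 21 days and 4 zebrafish fed throughout, the 8 libraries of the 21 days post-starvation (21dpS) time point among 23 libraries in the series. They were chosen by the time point and diet given in their labels, and no measured value entered the choice. Each library was made from the whole intestinal tract of 1 fish, and all fish were siblings from 1 breeding pair with no genetic alteration. The starved fish received no food for 21 days, and the fed fish received brine shrimp (Artemia) and a dry diet (Gemma) throughout. The labels give an age of 81 days post-fertilization (dpf) for both groups. They give the same age for the libraries of the other time points, although those fish were sampled on other days. Food was withheld or given per tank, with 2 tanks for each diet. Tank 1 held 1 of the 4 starved fish and tank 2 held 3, while the fed fish came 2 from each tank, so diet and tank cannot be told apart and p-values cover the spread between fish alone. The comparison asks which intestinal genes responded to prolonged loss of food, in both directions.

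The intestine is the tissue that takes up the diet. Its absorptive cells, the enterocytes, digest nutrients at their brush border, re-esterify dietary fat and export it as chylomicrons, lipoprotein particles built on apolipoprotein B by the microsomal triglyceride transfer protein. With no meal these cells are fed from the circulation, and in vertebrates the epithelium thins and renews more slowly during long fasts. A whole intestine also holds muscle, immune cells and adhering exocrine pancreas, so that fewer cells of a type and less RNA per cell cannot be told apart in these data.

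Between 574874 and 699321 reads were counted on genes in the starved libraries (median 600357), and between 532047 and 560381 in the fed libraries (median 554891). Levels are given as CPM, reads scaled to the size of each library. A count of 3 reads, used as the limit of detection, was worth 4.53 to 5.52 CPM in starved and 5.27 to 6.48 CPM in fed libraries, for sampling of reads alone. Where values of single fish are listed, the starved fish stand in the order Sta1Gut2, Sta2Gut1, Sta2Gut2 and Sta2Gut3 and the fed fish in the order Fed1Gut1, Fed1Gut3, Fed2Gut1 and Fed2Gut3, with the tank number first in each name. Enterocyte markers were present in both groups: all 15 identifiers of the list had reads, and their sum ranged over 2829 to 4838 CPM in starved fish and 4519 to 5627 CPM in fed fish. Counts of 2 libraries of the same group differed by more than read sampling (chi-square per degree of freedom 6.59 to 15.7 over 12 pairs), so no library was a copy of another. Across genes, which are not independent replicates, log2 CPM correlated with r of 0.903 to 0.932 among starved libraries, 0.853 to 0.913 among fed libraries and 0.828 to 0.893 between the groups.

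The name of a gene in these counts needs care. The library kit named in the labels marks strand, and the strand option of the counting is not given in the sources used here. MT-ND6, the one protein gene on the other strand of the mitochondrial genome, had 15123 to 23153 reads in starved libraries and 10872 to 18404 in fed libraries, while the highest of the 12 other mitochondrial protein genes had at most 5253 and 4062. Reads listed under a gene may therefore come from that gene, from a neighbour on the opposite strand, or from both, and these cannot be told apart here. For the same reason, a low or 0 count may not show the level of the gene named. The globin entries hbaa1 and hbaa2, for example, had 0 reads each in starved fish, and 1 and 0 in fed fish. Whether reads were assigned to the opposite strand was not tested. In the RefSeq gene table of assembly GRCz12tu, another protein-coding gene lies over or within 1000 bases of 22 of the 24 raised genes that could be placed (91.7%), of 18 of the 45 placed lowered genes (40%), and of 57.4% of the 2580 tested genes that could be placed. Many of these neighbours, though not all, are named below.

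Of 3203 genes tested, 90 (2.81%) were called at an edgeR adjusted p under 0.05. Levels of 37 genes (1.16%) were higher in starved fish and those of 53 (1.65%) were lower. The lowered genes had the larger changes, with a median 3.44-fold decrease and 21 of 53 beyond 4-fold, whereas the raised genes had a median 2.72-fold increase and 7 of 37 beyond 4-fold. Per-fish values of starved and fed fish did not overlap for 36 of the 37 raised and 52 of the 53 lowered genes, against 12.7% of all tested genes. Across all tested genes the median log2 fold change was -0.02, 1539 of 3203 had a positive value, and 670 had an unadjusted p under 0.05, the background for the counts by list that follow. Every one of the 90 genes kept its direction in every alternative fit that tested it, but the number called was sensitive to single fish: it was 35 without starved fish Sta2Gut3, 50 without Sta2Gut1, 56 without Sta1Gut2, 53 without fed fish Fed2Gut3 and 137 without Fed2Gut1. Calls held without any 1 of the 8 libraries for 25 genes, 11 raised and 14 lowered. When reads were summed per tank, leaving 2 tanks against 2, 18 genes were called, of which 10 were among the 90: pla2g4cl1, c6.2, tmprss15, ptges3l and ENSDARG00000080401 (raised), and sycp2l, si:ch211-106h4.4, zgc:154142, c2cd3 and jak2a (lowered).

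**Figure D1:**
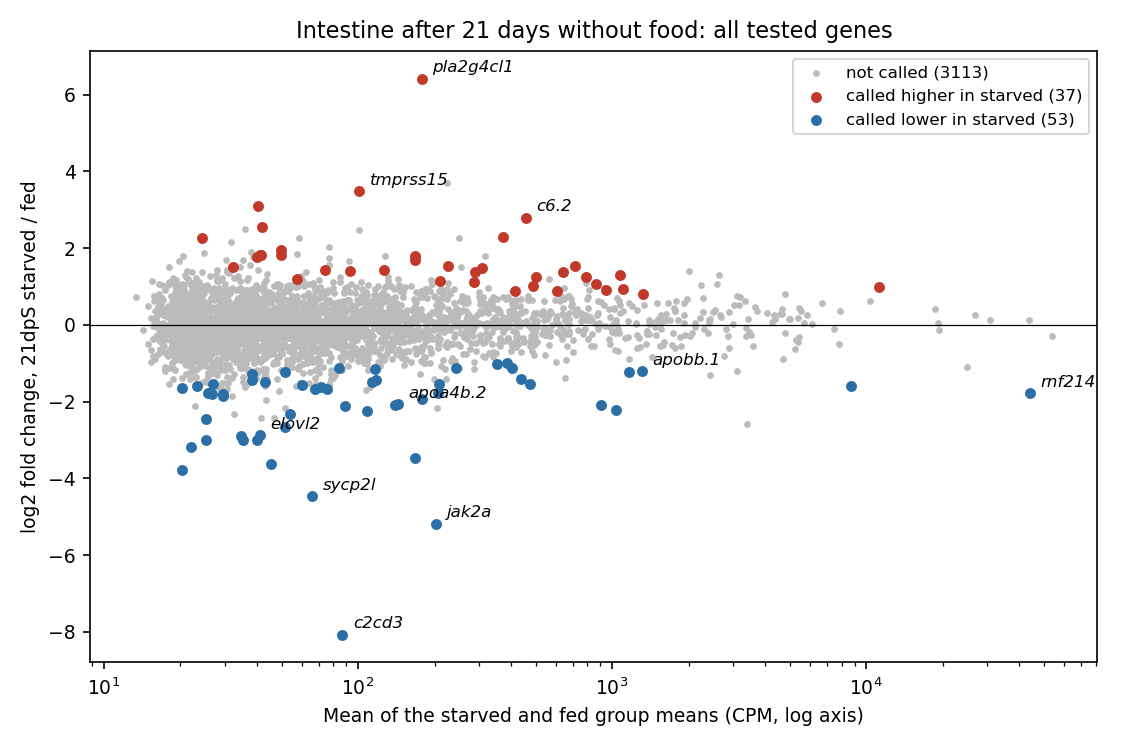
Log2 fold change of 21dpS starved over fed fish (vertical axis) against the mean of the 2 group means in CPM (log axis) for the 3203 tested genes, with 37 genes called higher in red, 53 called lower in blue and the rest in gray. Called genes lie at low and high abundance, up to rnf214 at 19923 CPM in starved and 68305 CPM in fed fish.

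The machinery of fat export held the most lowered genes of any list. Of 23 tested genes for apolipoproteins and chylomicron assembly, 10 fell, none rose, and the list's median log2 fold change was -1.12 against -0.02 for all genes. The group comprised the lipoprotein scaffold apobb.1, 3 genes of the apoa4b cluster, both apoe genes, mttp, pla2g12b, the fatty acid binding protein fabp1b.1 and the sterol carrier scp2a. Summed over the whole list, levels were 1793 to 3339 CPM in starved fish and 5274 to 6619 CPM in fed fish. Enterocyte markers had a median log2 fold change of -0.72, with 10 of 12 negative and 7 at an unadjusted edgeR p under 0.05. The 3 called lower by edgeR were fabp1b.1, mttp and apoa4b.1 of the same group. DESeq2 called 5 lower, these 3 with apoa1a and the brush border gene vil1, which averaged 397 CPM in starved and 690 CPM in fed fish. The part of enterocyte number in the fall of the 10 genes was not tested.

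Apolipoprotein B gene apobb.1, which encodes the structural protein that each chylomicron is built around, had 554, 746, 775 and 1078 CPM in the starved fish, against 1841, 2069, 1395 and 1997 CPM in the fed fish. All starved fish lay below all fed fish (log2 fold change -1.21 ± 0.25, edgeR adjusted p = 0.0186). The gene mttp, for the transfer protein that loads lipid onto apolipoprotein B, had 25.9, 35.0, 22.8 and 55.9 CPM in the starved fish, against 96.5, 74.0, 147 and 114 CPM in the fed fish, and the groups again did not overlap (log2 fold change -1.61 ± 0.34, edgeR adjusted p = 0.0212). The gene pla2g12b, whose product is needed for lipoprotein secretion, had 98.6, 134, 156 and 224 CPM in the starved fish, against 362, 317, 361 and 290.0 CPM in the fed fish (log2 fold change -1.12 ± 0.27, edgeR adjusted p = 0.039). The lowest fed fish, Fed2Gut3, was close to the highest starved fish, and the gene table places oit3 over part of the gene. Both apolipoprotein E genes fell: apoea averaged 244 ± 86.7 CPM in starved fish and 707 ± 201 CPM in fed fish (SD, n = 4 each, log2 fold change -1.53 ± 0.31, edgeR adjusted p = 0.0186), with starved fish Sta1Gut2 far below its group and si:dkey-3n22.9 over the gene, and apoeb 72.1 ± 17.2 CPM in starved fish and 160.4 ± 42.1 CPM in fed fish (SD, n = 4 each, log2 fold change -1.15 ± 0.28, edgeR adjusted p = 0.0426).

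The apolipoprotein A-IV genes lie in a cluster and encode small lipoprotein components that enterocytes secrete with chylomicrons. The largest change was in apoa4b.2, with 29.1, 92.1, 42.1 and 58.9 CPM in the starved fish, against 244, 279, 242 and 166 CPM in the fed fish (log2 fold change -2.07 ± 0.34, edgeR adjusted p = 0.00589). The 4 fed fish lay close together, well above every starved fish. Its neighbours in the cluster changed in the same direction by -1.66 ± 0.34 (apoa4b.3) and -1.49 ± 0.34 (apoa4b.1) on the log2 scale (edgeR adjusted p = 0.0186 and 0.0295), and si:dkey-7f3.14 lies 383 bases from apoa4b.3. Inside the enterocyte, fabp1b.1, which binds fatty acids in the cytosol, had 27.5, 62.6, 57.9 and 64.9 CPM in the starved fish, against 191, 374, 184 and 156 CPM in the fed fish (log2 fold change -2.09 ± 0.35, edgeR adjusted p = 0.00655), and fed fish Fed1Gut3 stood well above the others. The gene scp2a, whose product carries sterols and other lipids within the cell and which lies 259 bases from czib, had 96.9, 57.1, 153 and 116 CPM in the starved fish, against 335, 463, 190.0 and 251 CPM in the fed fish (log2 fold change -1.55 ± 0.34, edgeR adjusted p = 0.027). All starved fish were below all fed fish for both.

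Of these 10 calls, those of apoa4b.2 and fabp1b.1 held without any 1 library. Those of apoea (lost without Sta2Gut3), apoa4b.3 (lost without Sta1Gut2 or Sta2Gut3) and apobb.1 (lost without Fed2Gut3, Sta1Gut2 or Sta2Gut1) held in at least 5 of the 8 fits, with edgeR adjusted p up to 0.0667. Those of mttp and scp2a held in 4 fits, of apoa4b.1 in 2, of pla2g12b in 1 and of apoeb in none, with edgeR adjusted p up to 0.119. Set against all 11 fed fish of the series, the calls of apoa4b.1, apoa4b.2, apoa4b.3 and apoeb were lost (edgeR adjusted p = 0.0776, 0.12, 0.515 and 0.528).

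The single most abundant called gene was rnf214, a ubiquitin ligase gene by its name. It had 14385, 20713, 27803 and 16790.2 CPM in the starved fish, against 58495, 78994, 78748 and 56983 CPM in the fed fish (log2 fold change -1.78 ± 0.26, edgeR adjusted p = 0.00347). The gene table places apoa1a, the apolipoprotein A-I gene, over its end by 63 bases. The counts listed under apoa1a itself averaged 109 ± 44.1 CPM in starved fish and 288 ± 158 CPM in fed fish (SD, n = 4 each), with a log2 fold change of -1.40 ± 0.43 that did not pass (edgeR adjusted p = 0.0929). It was called lower by DESeq2. How the reads divide between the 2 genes was not tested. Another very abundant lowered gene, ENSDARG00000098513, had 2844, 6068, 4887 and 3656 CPM in the starved fish, against 9947, 15632, 14184 and 12473 CPM in the fed fish (log2 fold change -1.58 ± 0.27, edgeR adjusted p = 0.00655). Both calls held without any 1 library, and for both genes the starved fish all lay below the fed fish.

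**Figure D2:**
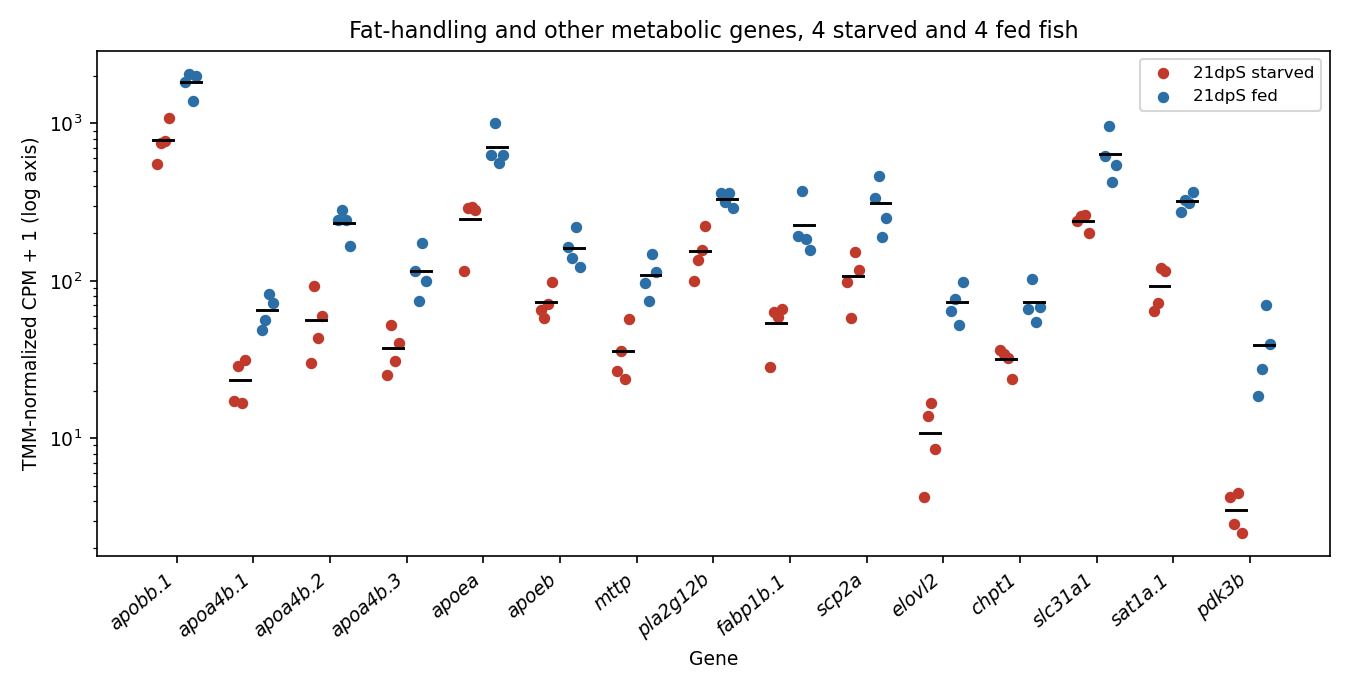
TMM-normalized CPM plus 1 (log axis) of 15 lowered genes in single fish, starved in red and fed in blue, with a bar at each group mean (n = 4 each). For all 15 genes the highest starved fish lies below the lowest fed fish.

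Among enzymes that build or remodel lipids, single genes were called. The elongase gene elovl2, which lengthens polyunsaturated fatty acids, had 3.23, 12.9, 15.8 and 7.55 CPM in the starved fish, against 63.2, 75.9, 51.8 and 97.3 CPM in the fed fish (log2 fold change -2.86 ± 0.42, edgeR adjusted p = 0.00347), a 7.28-fold decrease that held without any 1 library. Fed fish were all above starved fish, and elovl2 was the one gene called by edgeR among 6 tested for fatty acid synthesis and desaturation. The desaturase gene fads2 was called lower by DESeq2 and not by edgeR (log2 fold change -1.17 ± 0.30, edgeR adjusted p = 0.0536). The cholinephosphotransferase gene chpt1, of the last step of phosphatidylcholine synthesis, averaged 30.7 ± 5.63 CPM in starved fish and 72.1 ± 21.0 CPM in fed fish (SD, n = 4 each, log2 fold change -1.23 ± 0.30, edgeR adjusted p = 0.0458), the one call among 20 phospholipid genes, and it held in 1 of the 8 fits with a library left out. Fatty acid oxidation and carnitine genes gave no call among 14 by edgeR, with 3 at an unadjusted p under 0.05, 1 raised by DESeq2 and a median log2 fold change of -0.22. Sterol synthesis gave none among 4 by edgeR or DESeq2, with 1 at an unadjusted p under 0.05.

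Single genes of other metabolic routes were lowered as well. The gene pdk3b, for a kinase that switches off pyruvate dehydrogenase, had 3.23, 1.84, 3.51 and 1.51 CPM in the starved fish, against 17.6, 26.6, 69.1 and 38.5 CPM in the fed fish (log2 fold change -3.78 ± 0.57, edgeR adjusted p = 0.0038). The starved fish held 6 reads together, each below the detection limit, and every fed fish was above it. The gene sat1a.1, for spermidine/spermine N1-acetyltransferase, the enzyme that starts polyamine breakdown, had 63.0, 71.8, 119 and 115 CPM in the starved fish, against 274, 325, 313 and 365 CPM in the fed fish (log2 fold change -1.79 ± 0.27, edgeR adjusted p = 0.0038), and all starved fish lay below all fed fish. The copper importer gene slc31a1 had 238, 258, 259 and 201 CPM in the starved fish, against 621, 958, 425 and 545 CPM in the fed fish (log2 fold change -1.42 ± 0.27, edgeR adjusted p = 0.0137), a call lost without Sta2Gut3 (edgeR adjusted p = 0.0558). The mitochondrial creatine kinase gene listed as CKMT1B, whose product passes energy from mitochondria to the cytosol, had 63.0, 71.8, 50.8 and 54.4 CPM in the starved fish, against 183, 167, 168 and 152 CPM in the fed fish (log2 fold change -1.48 ± 0.25, edgeR adjusted p = 0.0063). Groups did not overlap for slc31a1 or CKMT1B. Of the lists these genes belong to, glucose production had 1 call in 13 tested genes, polyamine and arginine metabolism 1 in 9 (2 by DESeq2, with ckbb lower as well), and metal handling 1 in 7.

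The strongest lowered gene by p-value was si:ch211-106h4.4, with 12.9, 23.9, 33.3 and 39.3 CPM in the starved fish, against 267, 397, 190.0 and 379 CPM in the fed fish (log2 fold change -3.48 ± 0.37, edgeR adjusted p = 0.000492). Every fed fish was above every starved fish, and the table places the mannose receptor gene mrc1b over it and cacnb2b 824 bases from it. The gene zgc:154142, which otx2a overlaps, had 4.85, 7.37, 3.51 and 6.04 CPM in the starved fish, against 35.1, 45.5, 54.0 and 44.6 CPM in the fed fish (log2 fold change -2.99 ± 0.37, edgeR adjusted p = 0.00121). The gene sycp2l is named for a relative of a meiotic chromosome protein and is a neighbour of elovl2. Levels of sycp2l were 3.23, 9.21, 7.01 and 3.02 CPM in starved fish and 50.9, 60.7, 188 and 205 CPM in fed fish (log2 fold change -4.46 ± 0.58, edgeR adjusted p = 0.00253), and among fed fish both from tank 2 were higher than both from tank 1. The search of the gene table listed neither of them over or within 1000 bases of the other. How the reads divide between sycp2l and elovl2 was not tested. The giant muscle protein gene obscnb, which ccdc178 and gnal2 overlap, had 1.62, 3.68, 7.01 and 4.53 CPM in the starved fish, against 28.1, 18.98, 51.8 and 60.8 CPM in the fed fish (log2 fold change -3.18 ± 0.52, edgeR adjusted p = 0.00589).

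The largest fold decreases belonged to genes that varied widely among the fed fish. Both were picked out after their values were seen. The gene c2cd3, for a centriole protein, had a single read in the 4 starved fish together, against 49.1, 440.3, 173 and 30.4 CPM in the fed fish, and several genes overlap it. Its low level was not particular to 21 days. After 3 days of starvation c2cd3 averaged 4.08 ± 3.38 CPM in starved and 485 ± 621 CPM in fed fish (SD). After 3 days of refeeding it averaged 4.59 ± 3.86 CPM in refed and 138 ± 159 CPM in fed fish (SD). The signalling kinase gene jak2a had 8.08, 27.6, 3.51 and 4.53 CPM in the starved fish, against 205, 142, 1034 and 197 CPM in the fed fish (log2 fold change -5.18 ± 0.94, edgeR adjusted p = 0.0285), and fed fish Fed2Gut1 was far above the other 3. The calls of both held in 4 of the 8 fits with a library left out. Against all 11 fed fish of the series the log2 fold change of jak2a was -3.96 and its call was lost (edgeR adjusted p = 0.0534).

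Interferon-stimulated genes, which cells switch on in antiviral defense, had mostly negative log2 fold changes in starved fish. Of 16 tested, 15 had a negative log2 fold change, the median was -1.52 against -0.02 for all genes, and 15 had an unadjusted p under 0.05, but 2 were called, against 6 by DESeq2. One was irf1b, an interferon-responsive transcription factor gene that ddx46 overlaps, with 17.8, 5.52, 15.8 and 10.6 CPM in the starved fish, against 29.8, 45.5, 62.6 and 46.6 CPM in the fed fish (log2 fold change -1.86 ± 0.39, edgeR adjusted p = 0.0212). The other was ifit15, of a family of antiviral RNA-binding proteins, with 33.9, 23.9, 7.01 and 6.04 CPM in the starved fish, against 105, 39.9, 56.1 and 158 CPM in the fed fish (log2 fold change -2.33 ± 0.57, edgeR adjusted p = 0.049). Groups did not overlap for either, and fed fish Fed1Gut1 and Fed2Gut3 had the highest ifit15 values. Their calls held in 5 and 3 of the 8 fits with 1 library left out, with edgeR adjusted p up to 0.0853 and 0.132. Outside the list, ifi44a8 and ifi44a6, relatives of an interferon-induced gene, were chosen after their values were seen. The gene ifi44a8 had 14.5, 3.68, 8.77 and 7.55 CPM in the starved fish, against 61.4, 39.9, 38.9 and 146 CPM in the fed fish (log2 fold change -3.00 ± 0.52, edgeR adjusted p = 0.00733), and ifi44a6 had 32.3, 7.37, 7.01 and 9.06 CPM in the starved fish, against 102, 56.9, 36.7 and 162 CPM in the fed fish (log2 fold change -2.65 ± 0.57, edgeR adjusted p = 0.0295). In both the starved fish were all below the fed fish. The call of ifi44a8 held without any 1 library and that of ifi44a6 in 3 of 8 fits. The immunoproteasome subunit entry PSMB8, overlapped by psmb13a, psmb12 and psmb9a in the gene table, averaged 22.2 ± 2.66 CPM in starved fish and 54.1 ± 6.63 CPM in fed fish (SD, n = 4 each, log2 fold change -1.28 ± 0.29, edgeR adjusted p = 0.0298), a call that held in 1 of 8 such fits. Among 15 antigen processing genes it was the one lowered call. Leukocyte markers summed to 398 to 517 CPM in starved fish and 612 to 767 CPM in fed fish, with 48 of 57 markers read. Without cpa5, which the pancreas list also holds, the sums overlapped, at 377 to 491 CPM in starved fish and 389 to 538 CPM in fed fish. The gene of the common leukocyte antigen, ptprc, averaged 173 CPM in starved fish and 193 CPM in fed fish. The part of leukocyte number in these differences was not tested.

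Genes of the exocrine pancreas, the gland that supplies the gut with digestive enzymes and often adheres to a dissected intestine, were also among those lowered. Of 10 tested markers 3 fell, the carboxypeptidase gene cpa5, the trypsin gene prss59.1 and the lipase gene cel.2, and the list's median log2 fold change was -1.46. Of the 10, 9 had a negative and 1 a positive log2 fold change. Of the same 10, 8 had an unadjusted edgeR p under 0.05. Markers that were not called included prss1, at 26.3 CPM in starved and 69.3 CPM in fed fish, and cpb1, at 24.0 and 61.0 CPM. Differences were smaller for pla2g1b, at 230 CPM in starved and 201 CPM in fed fish, and for amy2a, at 76.2 and 90.7 CPM. The paper treats cpa5 as a mast cell marker. The gene cpa5 had 38.8, 66.3, 21.0 and 25.7 CPM in the starved fish, against 118, 378, 121 and 101 CPM in the fed fish (log2 fold change -2.24 ± 0.49, edgeR adjusted p = 0.0314). The gene prss59.1 had 25.9, 53.4, 17.5 and 36.2 CPM in the starved fish, against 102, 307, 114 and 56.8 CPM in the fed fish (log2 fold change -2.12 ± 0.51, edgeR adjusted p = 0.0462). The gene cel.2, which gtf3c5 overlaps, had 30.7, 38.7, 29.8 and 22.7 CPM in the starved fish, against 68.5, 158, 95.0 and 38.5 CPM in the fed fish (log2 fold change -1.56 ± 0.39, edgeR adjusted p = 0.049). Fed fish Fed1Gut3 was the highest for all 3, and the 2 groups overlapped for cel.2. Over the whole list, 32 of 36 markers had reads, and their sum was 657 to 980 CPM in starved fish and 906 to 2329 CPM in fed fish, so that Sta2Gut1 exceeded Fed2Gut3. The acinar cell regulators ptf1a and rbpjl were at 0 reads in all 8 libraries, a count that may not show their absence. The calls of prss59.1 and cel.2 were each lost in 6 of the 8 fits with 1 library left out, Fed1Gut3 among them, and that of cpa5 was lost without Sta1Gut2, Sta2Gut2 or Sta2Gut3, with edgeR adjusted p up to 0.128 for prss59.1, 0.137 for cel.2 and 0.113 for cpa5. The part of adhering tissue in these differences was not tested. The yolk protein gene vtg5, made by the liver of egg-laying females, was the one call among 15 hepatocyte markers, with 3.23, 20.3, 3.51 and 6.04 CPM in the starved fish, against 24.6, 119.6, 23.8 and 75.0 CPM in the fed fish (log2 fold change -2.88 ± 0.67, edgeR adjusted p = 0.0418), and it held in 3 of 8 such fits. The other vitellogenin entries of the list, vtg1, vtg2, vtg3, vtg4, vtg6 and vtg7, also had lower means in starved fish, with vtg7 at 1.38 CPM in starved and 67.6 CPM in fed fish. Of the 15 tested hepatocyte markers, 8 had a positive and 7 a negative log2 fold change. Hepatocyte markers summed to 924 to 1674 CPM in starved fish and 876 to 2019 CPM in fed fish, and these ranges overlapped. The sex of the fish was not used here.

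No list held more than 1 gene called higher by edgeR. Of the 12 with the smallest p-values, the leading named gene was tmprss15, for enteropeptidase, the brush border enzyme that activates pancreatic trypsinogen. It had 142, 300.2, 203 and 99.7 CPM in the starved fish, against 22.8, 22.8, 15.1 and 4.06 CPM in the fed fish (log2 fold change 3.49 ± 0.46, edgeR adjusted p = 0.00245), an 11.2-fold increase that held without any 1 library and with reads summed per tank. It was the one edgeR call among 21 brush border genes, of which DESeq2 also called naalad2 and vil1 lower, and whose median log2 fold change was -0.20 with 16 of 21 negative. The gene lies 214 bases from poglut3 in the gene table. The levels of this activator and of the trypsin gene prss59.1 thus changed in opposite directions.

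The largest fold increase was in pla2g4cl1, a phospholipase A2 gene of the cytosolic family, with 429.8, 702, 199.8 and 78.5 CPM in the starved fish, against 7.02, 0, 4.32 and 4.06 CPM in the fed fish (log2 fold change 6.42 ± 0.86, edgeR adjusted p = 0.00589). The fed fish held 8 reads together, and the starved fish differed widely among themselves, with Sta2Gut3 the lowest. It overlaps gusb by 22050 bases in the gene table. The complement component gene c6.2, of the membrane attack complex, had 1318, 499, 361 and 1016 CPM in the starved fish, against 144, 62.6, 145 and 107 CPM in the fed fish (log2 fold change 2.80 ± 0.43, edgeR adjusted p = 0.00589). In the gene table c7b overlaps it and rgs7bpb lies 687 bases away. It is not on the complement list. Among 9 tested genes of that list, all 9 had positive log2 fold changes, with a median of 0.68, but none was called by edgeR or DESeq2 and 3 had an unadjusted p under 0.05.

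The other leading raised genes, apart from ENSDARG00000080401, had smaller changes. The entry SLC25A15, named for the mitochondrial ornithine carrier, had 779, 807, 615 and 613 CPM in the starved fish, against 309, 256, 296 and 329 CPM in the fed fish (log2 fold change 1.24 ± 0.22, edgeR adjusted p = 0.00733). The gene ndor1, for a flavoprotein of iron-sulfur cluster assembly, had 1179.5, 1247, 943 and 1285 CPM in the starved fish, against 621, 524, 509.6 and 580.0 CPM in the fed fish (log2 fold change 1.06 ± 0.21, edgeR adjusted p = 0.0174), with gpr107 and ntmt1 next to it. The signalling adaptor gene traf4b had 35.5, 25.8, 52.6 and 48.3 CPM in the starved fish, against 12.3, 7.59, 6.48 and 6.08 CPM in the fed fish (log2 fold change 2.27 ± 0.39, edgeR adjusted p = 0.00733), with aldh3a2b next to it. The gene mocs2, of molybdenum cofactor synthesis, which LOC103911725 overlaps, had 48.5, 119.7, 70.12 and 74.0 CPM in the starved fish, against 24.6, 28.5, 17.3 and 16.2 CPM in the fed fish (log2 fold change 1.83 ± 0.35, edgeR adjusted p = 0.0153). Starved fish were all above fed fish for each of these genes. The entry si:ch1073-416d2.4, which ddx24 and nek9 overlap, had 204, 199, 161 and 177 CPM in the starved fish, against 80.7, 58.8, 69.1 and 62.9 CPM in the fed fish (log2 fold change 1.44 ± 0.25, edgeR adjusted p = 0.00655), and tti2, a chaperone cofactor gene overlapped by mak16 and grk5l, had 100.2, 118, 116 and 101 CPM in the starved fish, against 40.4, 43.6, 49.7 and 26.4 CPM in the fed fish (log2 fold change 1.44 ± 0.28, edgeR adjusted p = 0.0153). The entry si:ch211-170d8.2 averaged 64.6 ± 17.5 CPM in starved fish and 18.2 ± 7.19 CPM in fed fish (SD, n = 4 each, log2 fold change 1.82 ± 0.36, edgeR adjusted p = 0.0174). The identifiers ENSDARG00000080401 and ENSDARG00000097996, which the tables used give no name, rose by 3.09 ± 0.38 and 1.68 ± 0.26 on the log2 scale (edgeR adjusted p = 0.00121 and 0.0038). All of these calls except that of ndor1, lost without Sta2Gut3 (edgeR adjusted p = 0.0558), held without any 1 library. Against all 11 fed fish of the series the call of si:ch211-170d8.2 was lost, with a log2 fold change of 0.95 (edgeR adjusted p = 0.107).

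**Figure D3:**
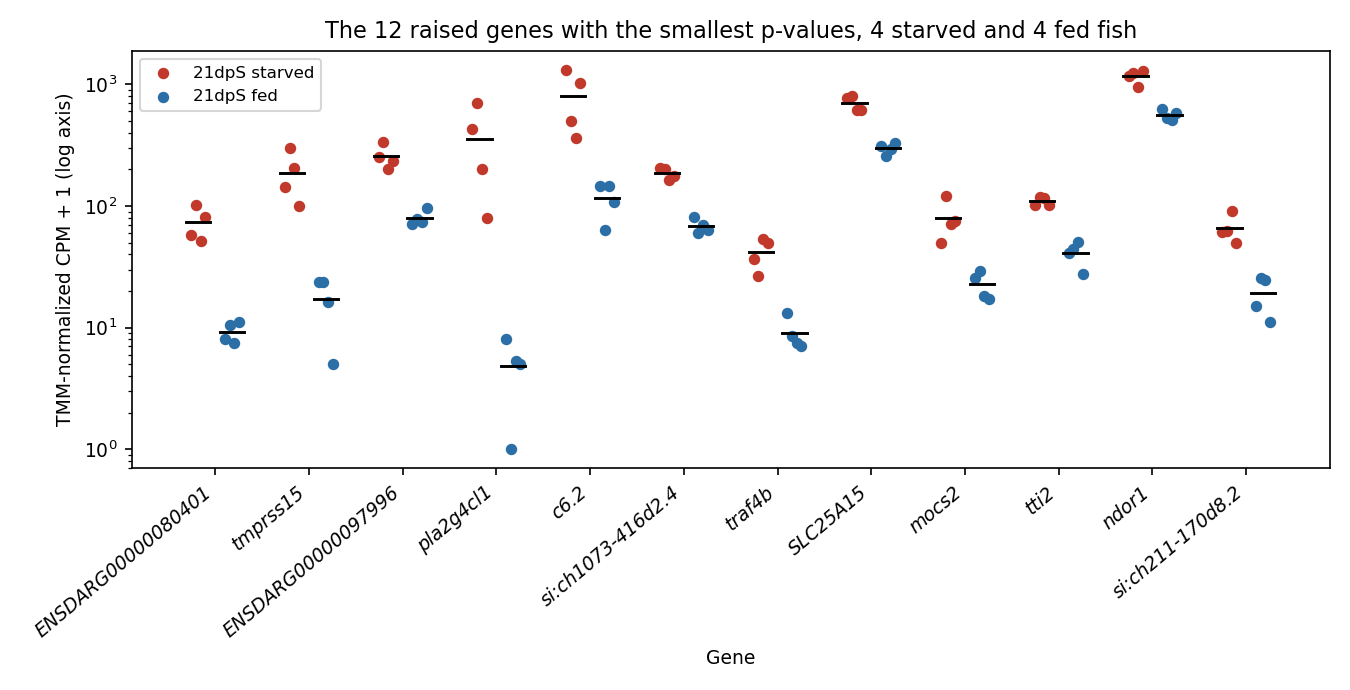
TMM-normalized CPM plus 1 (log axis) in single fish for the 12 raised genes with the smallest p-values, starved in red and fed in blue, with a bar at each group mean (n = 4 each). The 4 starved fish lie above the 4 fed fish for every gene shown, and the spread among starved fish is widest for pla2g4cl1.

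Among the other called genes a few with known roles were picked out after their values were seen. The phosphatidylcholine synthesis gene pcyt1bb, not on the phospholipid list, averaged 7.70 ± 5.92 CPM in starved fish and 42.5 ± 11.4 CPM in fed fish (SD, n = 4 each, log2 fold change -2.45 ± 0.47, edgeR adjusted p = 0.0149), and selenop, for the plasma carrier of selenium, 700.0 ± 147 CPM in starved fish and 1639.7 ± 561 CPM in fed fish (SD, n = 4 each, log2 fold change -1.23 ± 0.27, edgeR adjusted p = 0.0275). The gene cndp2, for a cytosolic dipeptidase, averaged 233 ± 23.2 CPM in starved fish and 469 ± 6.00 CPM in fed fish (SD, n = 4 each, log2 fold change -1.01 ± 0.21, edgeR adjusted p = 0.02). On the raised side, far1, for the enzyme that makes fatty alcohols for ether lipids, averaged 64.5 ± 29.1 CPM in starved fish and 17.7 ± 4.95 CPM in fed fish (SD, n = 4 each, log2 fold change 1.83 ± 0.40, edgeR adjusted p = 0.024), with dkk3b 280 bases away. The collagen gene col28a1a, which c1galt1a overlaps by 103 bases, averaged 1524 ± 133 CPM in starved fish and 618 ± 263 CPM in fed fish (SD, n = 4 each, log2 fold change 1.301 ± 0.27, edgeR adjusted p = 0.0211). All 5 calls were lost in some of the fits without 1 library, with pcyt1bb held in 7 of 8, far1 in 5, and selenop, cndp2 and col28a1a in 4.

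Lists of cell growth leaned upward with few calls. Of 47 tested ribosome biogenesis genes 40 had positive log2 fold changes (median 0.49), 15 had an unadjusted p under 0.05 and 1 was called, against 7 by DESeq2. That one, ptges3l, belongs to the family of the p23 co-chaperone and is not known as a nucleolar factor. It had 580.1, 827, 135 and 930.4 CPM in the starved fish, against 93.0, 91.1, 201 and 119.6 CPM in the fed fish (log2 fold change 2.295 ± 0.52, edgeR adjusted p = 0.0462), with starved fish Sta2Gut2 inside the fed range, and its span in the gene table holds the whole of g6pc1a.1, a glucose-6-phosphatase gene of glucose production. The counts listed under g6pc1a.1 itself, which was too low to be tested, averaged 16.4 ± 12.2 CPM in starved fish and 15.7 ± 8.63 CPM in fed fish (SD, n = 4 each). Of 9 cell cycle and DNA replication genes 7 were positive (median 0.72), and the clamp loader gene rfc5, which wsb2 overlaps, was called, with 317, 525, 319 and 403 CPM in the starved fish, against 154, 178, 136 and 247 CPM in the fed fish (log2 fold change 1.13 ± 0.27, edgeR adjusted p = 0.0353). The calls of ptges3l and rfc5 each held in 2 of 8 fits with 1 library left out. The antigen processing entry ERAP1, for a peptide-trimming aminopeptidase, rose, with 69.5, 70.0, 38.6 and 69.5 CPM in the starved fish, against 15.8, 15.2, 28.1 and 14.2 CPM in the fed fish (log2 fold change 1.76 ± 0.35, edgeR adjusted p = 0.0178), and its call was lost without Fed2Gut3 or Sta2Gut3.

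Several large systems gave few calls or none. Of 62 cytosolic ribosomal protein genes none was called by edgeR or DESeq2, 2 had an unadjusted p under 0.05, and the median log2 fold change was 0.26. Nuclear oxidative phosphorylation genes gave none among 23 by edgeR and 1 lower by DESeq2 (median -0.36, 8 at an unadjusted p under 0.05). Lysosome genes gave none among 34 by either tool (median -0.32, 9 at an unadjusted p under 0.05). Nutrient transporters gave none among 20 by edgeR and 1 higher by DESeq2 (median 0.16, 6 at an unadjusted p under 0.05). Autophagy and starvation signalling genes gave none among 10 by edgeR and 1 higher by DESeq2 (median 0.13, 2 at an unadjusted p under 0.05). Mitochondrial genome protein genes (13 tested) and circadian clock genes (8 tested) gave none by either tool, with 1 each at an unadjusted p under 0.05, and vitamin A and one-carbon genes (12 tested) gave none by edgeR and 1 lower by DESeq2, with 1 at an unadjusted p under 0.05. Of 28 chaperone genes the entry p4hb, a protein disulfide isomerase gene, was the one call, with 242, 282, 231 and 263 CPM in the starved fish, against 534, 463, 693 and 535 CPM in the fed fish (log2 fold change -1.13 ± 0.22, edgeR adjusted p = 0.0162), lost without Sta2Gut3 (edgeR adjusted p = 0.0558).

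**Figure D4:**
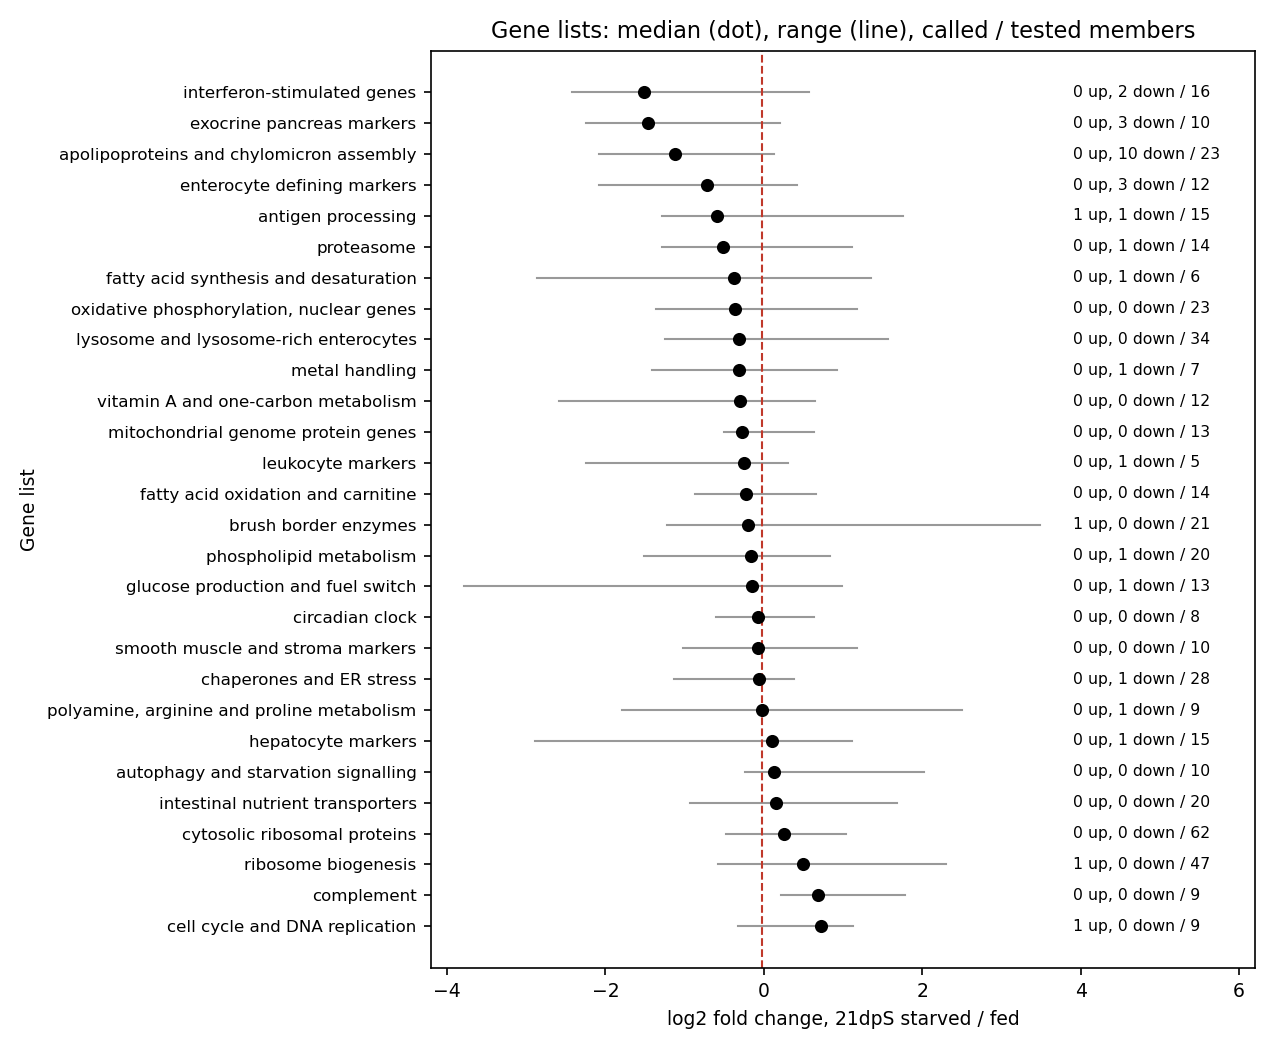
Median (dot) and range (line) of the log2 fold change of 21dpS starved over fed fish for each gene list with at least 5 tested members, with the numbers of genes called higher (up) and lower (down) out of those tested, and the median of all tested genes as a dashed line. Interferon-stimulated genes (-1.52), exocrine pancreas markers (-1.46) and apolipoproteins (-1.12) have the lowest medians, and cell cycle genes (0.72) the highest.

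The response at 21 days was then set beside those after 3 days of starvation (3dpS) and 3 days after refeeding (3dpR), which have fed controls of their own. At 3dpS, 83 of the 90 genes could be tested and 72 had the same sign, with a median log2 fold change of 0.52 for the raised and -0.66 for the lowered genes, against 1.44 and -1.78 at 21dpS. At 3dpR, 80 could be tested, 60 had the same sign, and the medians were 0.22 and -0.18. The share of all tested genes with the same sign is not given here. Already called lower at 3dpS were sycp2l (log2 fold change -3.67 ± 0.35, edgeR adjusted p = 0.000528) and slc31a1 (-1.67 ± 0.32, edgeR adjusted p = 0.0411). The leading lowered gene, si:ch211-106h4.4, was still called lower in the refed fish of 3dpR (log2 fold change -1.82 ± 0.28, edgeR adjusted p = 0.0247). The 90 genes were picked by their 21dpS values, which by itself tends to make those values the larger ones, so the test of the difference was made over all genes. Between 21dpS and 3dpS the effect differed for none of 4628 genes by edgeR (0%) and for 1 by DESeq2, with 400 at an unadjusted p under 0.05. Between 21dpS and 3dpR it differed for 2 genes (0.0432%), sat1a.1 and sycp2l.

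The log2 fold changes of sat1a.1 were -0.76 at 3dpS, -1.79 at 21dpS and 0.08 at 3dpR, and the difference between 21dpS and 3dpR was -1.87 ± 0.32 (edgeR adjusted p = 0.0169). The fed fish themselves differed in sat1a.1, with 231 ± 16.7 CPM at 3dpS, 299 ± 42.6 CPM at 21dpS and 184 ± 40.5 CPM at 3dpR (SD). The log2 fold changes of sycp2l were -3.67 at 3dpS, -4.46 at 21dpS and -0.35 at 3dpR, with a difference of -4.13 ± 0.75 (edgeR adjusted p = 0.0281). The number of such genes was 0 without Sta1Gut2, Sta2Gut1 or Fed2Gut3 of 21dpS, 1 without Sta2Gut3 or Fed2Gut1 of 21dpS or Sta1Gut1 or Fed1Gut2 of 3dpR, 4 or 5 without Sta2Gut2 of 21dpS or Sta1Gut3, Sta2Gut1 or Fed1Gut3 of 3dpR, and 7 without Fed1Gut1 of 21dpS. For elovl2 the log2 fold changes were -1.46 at 3dpS, -2.86 at 21dpS and -0.46 at 3dpR, for fabp1b.1 -1.14 at 3dpS, -2.09 at 21dpS and -0.52 at 3dpR, and for tmprss15 1.57 at 3dpS, 3.49 at 21dpS and 1.21 at 3dpR, and none of these 3 differed between 21dpS and either other time at an edgeR adjusted p under 0.05.

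**Figure D5:**
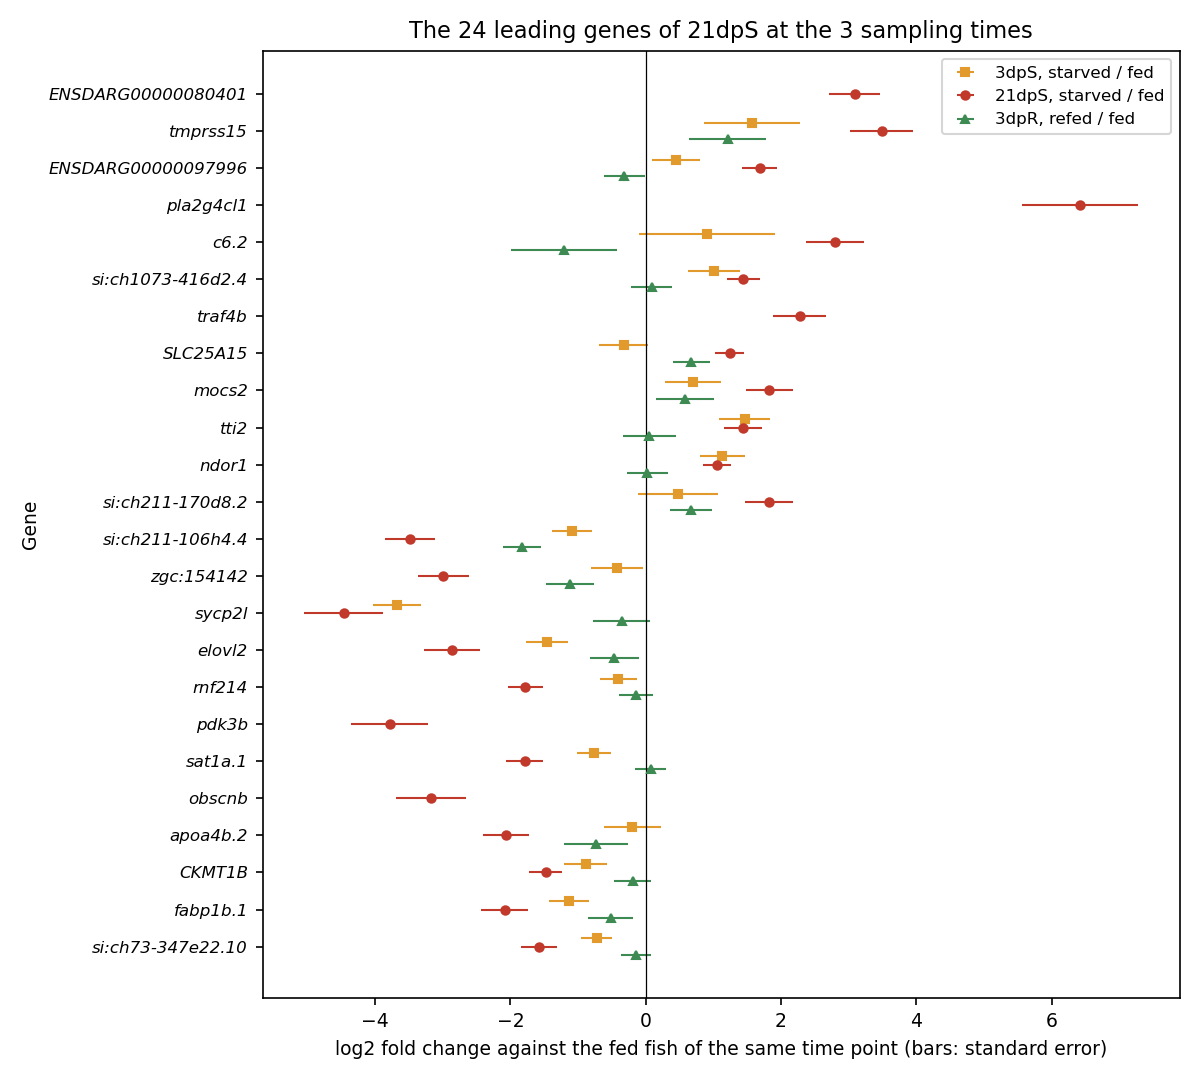
Log2 fold change against the fed fish of the same time point, with standard error, for the 12 raised (top) and 12 lowered (bottom) genes with the smallest p-values at 21dpS, shown at 3dpS (squares), 21dpS (circles) and 3dpR (triangles, refed fish). Genes with a circle alone did not pass the filter on low counts at the other times. Among them, pla2g4cl1 averaged 102 ± 203 CPM in starved and 3.54 ± 4.72 CPM in fed fish of 3dpS (SD). At 3dpR it averaged 104 ± 140 CPM in refed and 4.20 ± 6.34 CPM in fed fish (SD). The gene sycp2l has a log2 fold change of -3.67 at 3dpS and -0.35 at 3dpR.

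The fed fish of 21dpS were also compared with the fed fish of the other times. The paper gives a shared birth date for all fish and different sampling days, so these fed groups differed in age. Their labels nevertheless give the same age. The paper compared its own fed time points to gauge the effect of developmental time, and left genes that differed there out of later steps. It proposes that the fall of apoa1a, apoa4b.1, fads2, pdk3b and syt1b may come in part from high levels in the 21dpS fed fish. In an independent cohort it reports lower elovl2, pla2g12b and apoa4b.2 by quantitative RT-PCR after 21 days of starvation than in fed fish. The part of age in the differences that follow was not tested. Against the fed fish of 3dpS and 3dpR together, 5 of 3905 genes (0.128%) differed in the 21dpS fed fish, all higher: cyp26a1, map3k4, apoeb, apoa4b.3 and CABZ01054405.2, the last 3 of them among the 53 genes lower in 21dpS starved fish. Their number was 2 without Fed1Gut1 or Fed2Gut3 of 3dpS, Fed2Gut3 of 21dpS or Fed1Gut2 of 3dpR, 3 without Fed1Gut1 of 21dpS or Fed2Gut2 of 3dpR, and 8 without Fed1Gut3 of 3dpR. Of the 90 genes called between starved and fed fish, 87 could be tested here. Of these, 29 differed in the 21dpS fed fish at an unadjusted edgeR p under 0.05, against 459 of all 3905 genes. For 23 of the 29 the direction was opposite to their change in starved fish, which makes that change larger. Among these were obscnb (log2 difference 1.69), pdk3b (1.31), jak2a (2.96) and sat1a.1 (0.53). Both comparisons use the same 21dpS fed libraries, which by itself favors differences in the opposite direction. The gene apoa4b.3 had 35.2 ± 11.9 CPM in the 21dpS starved fish, 107 ± 38.9 CPM in the 21dpS fed fish, and 17.1 ± 3.48 and 31.6 ± 15.5 CPM in the fed fish of 3dpS and 3dpR (SD). The gene apoeb had 70.14 ± 17.5 CPM in the 21dpS starved fish, 149.5 ± 38.3 CPM in the 21dpS fed fish, and 52.5 ± 7.86 and 62.6 ± 25.1 CPM in the fed fish of 3dpS and 3dpR, and apoa4b.2 had 54.0 ± 26.8 CPM in the 21dpS starved fish, 217 ± 40.9 CPM in the 21dpS fed fish, and 66.8 ± 22.8 and 89.96 ± 68.1 CPM in the fed fish of 3dpS and 3dpR. For these 3 genes the mean of the 21dpS starved fish was closer to the fed means of the other times than to that of the 21dpS fed fish. Set against all 11 fed fish of the series, which include the 21dpS fed fish and fed fish of other ages, 500 of 3919 genes were called. Among them were 75 of the 90 genes. The calls of apoa4b.2 (log2 fold change -1.28, edgeR adjusted p = 0.12), apoa4b.3 (-0.65, edgeR adjusted p = 0.515), apoa4b.1 (-0.93, edgeR adjusted p = 0.0776) and apoeb (-0.39, edgeR adjusted p = 0.528) were lost. The other named genes that lost their call were jak2a (-3.96, edgeR adjusted p = 0.0534), far1 (1.03, edgeR adjusted p = 0.0545), p4hb (-0.75, edgeR adjusted p = 0.0731), si:ch211-170d8.2 (0.95, edgeR adjusted p = 0.107), vtg5 (-1.98, edgeR adjusted p = 0.337) and CABZ01054405.2 (-1.60, edgeR adjusted p = 0.436). By contrast elovl2 (-2.95, edgeR adjusted p = 6.34e-05), fabp1b.1 (-1.76, edgeR adjusted p = 0.00248), mttp (-1.23, edgeR adjusted p = 0.0131) and apobb.1 (-0.97, edgeR adjusted p = 0.00815) were called lower and tmprss15 (3.29, edgeR adjusted p = 5.05e-05) higher against all 11 fed fish.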

How the data were processed

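Whole intestines of single fish were sequenced as total RNA. The authors trimmed the single-end reads with Trim Galore, aligned them to GRCz10 with STAR and counted them per Ensembl gene with HTSeq, and deposited raw counts without normalization, 1 table of 34326 genes per fish. The annotation release and the strand option are not given in the sources used here. Groups came from the sample labels. Names were found for 27063 identifiers, 681 of them from the study's supplementary table.

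The test was edgeR 4.0.16 (R 4.3.3) with filterByExpr, TMM scaling, a robust quasi-likelihood fit and a two-sided test, with Benjamini-Hochberg adjustment over all genes tested and a threshold of 0.05. The differences between time points were fitted on all 23 libraries and the fed controls on 11. CPM values are TMM-normalized, SD is over 4 fish (3 in fed fish of 3dpS), and ± after a log2 fold change is its standard error, taken as the fold change over the square root of the F statistic. For correlations and plots 1 was added to CPM. Genes named are the 12 with the smallest p-values in each direction and the called members of 33 gene lists, others being said to be chosen after their values were seen. The lists, genes and tests were chosen with earlier results of these data known. Alternatives were DESeq2 1.42.0, RLE factors, no filter, 10 counts in every library, a log2 fold change above 1, a tank block, all libraries in 1 fit, all fed fish as controls, tank sums, omission of the 100 most abundant genes and omission of each library. Scripts were tested on simulated data.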

Additional observations from a re-analysis of the deposited data

Results flagged for a closer look

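Among the 45 named called genes, each group of 4 fish was examined for a single fish far from the other 3 (90 groups), which chance alone gives in about 1 of 20 groups. It was found in 7. Fed fish Fed1Gut3 was high in 3 of them: fabp1b.1 was at 373.9 CPM against 156 to 191 CPM in the other fed fish, apoea at 1004 CPM against 561 to 633 CPM, and cpa5 at 377.7 CPM against 101 to 121 CPM. The same fish had the highest summed exocrine pancreas markers (2329 CPM) and blood markers (10849 CPM) of the 8, and their part in these values was not tested. The blood sum came mostly from alas2, with 8982 reads in the fed fish together. There hemgn had 383 reads, and the globin entries hbaa1 and hbaa2 had 1 and 0. Starved fish Sta1Gut2 was low for apoea, at 115 CPM against 279 to 295 CPM. For ERAP1, starved fish Sta2Gut2 was low at 38.6 CPM against 69.5 to 70.0 CPM, and fed fish Fed2Gut1 was high at 28.1 CPM against 14.2 to 15.8 CPM. For vtg5, starved fish Sta2Gut1 was high at 20.3 CPM against 3.23 to 6.04 CPM.

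The starvation effect at 21dpS and the refeeding effect at 3dpR differed by test for 2 genes, by -1.87 on the log2 scale for sat1a.1 and by -4.13 for sycp2l (edgeR adjusted p = 0.0169 and 0.0281).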

How the results depend on the processing

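No call at 21dpS changed direction under any alternative that tested the gene. The number called was 207 with DESeq2 (104 higher and 103 lower, all 90 genes included), 227 without a filter on low counts (97 and 130), 173 with all 23 libraries in 1 fit (79 and 94), 500 against the 11 fed libraries of all time points (260 and 240) and 18 with counts summed per tank (9 and 9). It was 92 with RLE factors, 69 with at least 10 counts in every library, 84 with an absolute log2 fold change above 1 and 88 without the 100 most abundant genes. Leaving out 1 library gave 35 (Sta2Gut3) to 137 (Fed2Gut1) calls, 17 (Sta2Gut1 or Sta2Gut3) to 60 (Fed2Gut1) higher and 18 (Sta2Gut3) to 77 (Fed2Gut1) lower, with 23 higher without Fed1Gut3 and 34 lower without Sta2Gut2. With the tank number as a replicate block the number was 150 (73 higher and 77 lower). The samples shared only a tank number: deviations of the 1 starved library of tank 1 correlated across genes with r = 0.228 with those of the tank 1 fed libraries, from 2 tanks with unequal numbers of fish.

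Genes whose effect differed between 21dpS and 3dpS numbered 1 with DESeq2, 13 without a filter, and 0 to 7 (without Fed1Gut1 of 3dpS) when 1 library was left out. Between 21dpS and 3dpR they numbered 30 with DESeq2, 27 without a filter, 4 with the replicate block, and 0 to 7 when 1 library was left out. In the fed controls of 21dpS, 34 genes differed with DESeq2, 63 without a filter, 16 with the replicate block, and 2 (without Fed1Gut1 of 3dpS) to 8 (without Fed1Gut3 of 3dpR) when 1 library was left out. The causes of these changes were not tested. The filter kept 3203 of the 19111 genes with reads. Without it all 19111 were tested and 80 of the 90 genes were called again, and DESeq2 tested 3917.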
